A study of Rattus norvegicus with 34 samples.

Results

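The constitutive proteasome subunit genes were taken as all genes on the array whose annotated symbol begins with Psma, Psmb, Psmc or Psmd, without the immunoproteasome genes Psmb8, Psmb9 and Psmb10. This gave 35 of the 13337 genes with a symbol, each read by 1 probe. Of these, 33 passed the filter for expressed genes, as did 6781 genes in all. Psma8 and Psmb11, which are known for testis and thymus, did not pass and are named only. The prefix also takes in Psmc3ip, a meiotic recombination factor that is not a proteasome subunit, and it was kept apart from the classes. Psmd10 and Psmd14 had no annotated probe and were not analysed here.

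Female Sprague-Dawley rats received a single dose of 12 mg/kg doxorubicin (DOX, an anthracycline used against tumors) or saline, and the left ventricle of the heart and peripheral blood mononuclear cells (PBMC, blood cells from a density gradient) were taken after 48 hours. The age of the rats is not given in the sources used here. Each tissue had 9 arrays labelled DOX and 8 labelled saline, which makes 34 arrays of 17 rats. The comparison asks how DOX changed transcript levels in the heart, and whether blood cells changed in the same way.

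The proteasome degrades proteins tagged with ubiquitin. Its 20S core is a barrel of outer alpha rings (Psma genes), which gate the entrance, and inner beta rings (Psmb genes), which hold the proteolytic sites. The 19S regulatory particle caps the barrel: its base unfolds substrates with a ring of ATPases (Psmc genes) around the scaffolds Psmd1 and Psmd2, and its lid (Psmd3, Psmd6 and other Psmd genes) helps to position the substrate and remove ubiquitin. Heart muscle relies on this system for the turnover of its contractile proteins.

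The promoters of 4 members are shown because these genes took different courses in the comparisons below. Psmb5 and Psmb6 encode catalytic subunits, Psma3, with a probe near background, did not fall, and Psmd4 had the largest fall in the heart. Each runs from 250 bases before to 50 bases after the annotated start, from RefSeq on the rat build GRCr8: Psmb5 at chr15:32047330-32047629 (minus strand), Psmb6 at chr10:55737638-55737937 (plus strand), Psma3 at chr6:95219499-95219798 (plus strand) and Psmd4 at chr2:185297152-185297451 (minus strand). Capitals mark the motif TGACNNNGC, the core of the antioxidant response element, on either strand. The transcription factor NRF1, known to induce proteasome genes when the proteasome is inhibited, binds elements of this kind.
Psmb5: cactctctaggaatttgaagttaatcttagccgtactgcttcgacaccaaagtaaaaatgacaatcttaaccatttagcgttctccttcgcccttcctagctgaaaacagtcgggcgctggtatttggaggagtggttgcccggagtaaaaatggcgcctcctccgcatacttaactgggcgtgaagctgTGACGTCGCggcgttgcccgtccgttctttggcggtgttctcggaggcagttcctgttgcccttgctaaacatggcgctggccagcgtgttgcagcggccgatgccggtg
Psmb6: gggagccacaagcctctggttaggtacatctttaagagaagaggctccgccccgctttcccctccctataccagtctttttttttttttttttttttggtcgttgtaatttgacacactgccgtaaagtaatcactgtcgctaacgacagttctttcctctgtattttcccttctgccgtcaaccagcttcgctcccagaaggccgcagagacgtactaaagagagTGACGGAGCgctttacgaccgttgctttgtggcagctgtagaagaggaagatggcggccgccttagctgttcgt
Psma3: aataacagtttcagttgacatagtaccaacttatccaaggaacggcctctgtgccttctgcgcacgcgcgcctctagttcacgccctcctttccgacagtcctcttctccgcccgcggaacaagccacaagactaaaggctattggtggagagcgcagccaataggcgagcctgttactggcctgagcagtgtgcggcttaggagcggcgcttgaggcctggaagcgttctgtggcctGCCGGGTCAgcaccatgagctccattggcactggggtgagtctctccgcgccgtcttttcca
Psmd4: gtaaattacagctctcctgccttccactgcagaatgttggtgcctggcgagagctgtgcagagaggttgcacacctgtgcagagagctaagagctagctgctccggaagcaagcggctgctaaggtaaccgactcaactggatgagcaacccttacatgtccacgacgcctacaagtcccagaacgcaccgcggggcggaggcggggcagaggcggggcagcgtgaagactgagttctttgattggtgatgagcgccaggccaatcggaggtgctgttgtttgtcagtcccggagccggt

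A promoter was found for 31 of the 35 members. TGACNNNGC, searched on both strands, was present in 7 of them (22.6%), against 12.1% of the 33469 rat promoters of the same length. It was found for Psma3, Psmb2, Psmb5, Psmb6, Psmd1, Psmd3 and Psmd9, and not in the Psmd4 window. The ETS motif CCGGAAG was in 38.7% of the member promoters, against 8.75% of all promoters. The GC box GGGCGG was in 71.0% of them, against 33.1%, and the CCAAT box in 51.6%, against 37.5%. The genes with TGACNNNGC spanned nearly the whole range of heart responses, with log2 fold changes from −3.28 for Psmb2 to 0.43 for Psma3. The Psma3 probe was near background (mean of 0.57 on heart saline arrays) and could hardly show a fall. The next gene was Psmd9 at −0.75. These matches are descriptions of the letters in the windows.

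All levels below are log2 intensities above the median of the probes not expressed on the same array, so that 0 is background. Levels of different genes come from different probes and are not set against each other. A gene was called where the limma test gave a Benjamini-Hochberg adjusted p under 0.05 over all 6781 genes and the fold change was over 2. In the heart, 49.4% of all tested genes were called, nearly all of them lower.

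The PBMC labels need a caution before any result. The study's own list of PBMC changes rests on a second division of the 17 arrays. Its DOX side (n = 9) holds all 8 arrays that carry a saline label together with DOX 1, and its control side (n = 8) holds DOX 2 to 9. Neither division could be shown to be the correct one from the data, so both groupings are given: "as labelled" and "second grouping". The paper reports lymphocytopenia in the DOX rats, and QPCR of selected genes in PBMC that it found to match its arrays. Leukocyte marker levels on both sides are given below. Their bearing on the grouping was not tested. Since only 1 array changes places relative to a full exchange of labels, the 2 groupings give nearly opposite directions. The arrays also differ in their numerical precision. The 22523 probes of a heart DOX array took 2826 to 4802 distinct values, against 22196 to 22417 on a heart saline array. The PBMC arrays of the DOX side took 2804 to 5746 distinct values, against 22278 to 22419 on the control side. In the heart and in the second grouping, treatment thus cannot be told apart from how the array values were handled. The same limit holds nearly in full as labelled. The arrays labelled PBMC saline took 2804 to 5746 distinct values, and of those labelled DOX only DOX 1 was in that range, with 3086. The arrays labelled PBMC saline 6 and DOX 1 stood apart from the other 7 of the DOX side: their correlation was 0.929, against 0.590 to 0.837 for each of them with those 7.

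Marker genes separated the tissues. The summed level of 6 cardiomyocyte markers was 21.5 to 29.2 on heart DOX arrays and 34.7 to 37.1 on heart saline arrays, and −0.44 to 0.35 on all PBMC arrays. Of the 6, 4 were called lower in the heart (Myh6, Tnnt2, Tnni3 and Mb). Actc1 (log2 fold change −0.64) and Ryr2 (0.58) were not called and went in different directions. The summed level of 5 leukocyte markers was 1.96 to 3.93 on heart DOX arrays and 4.69 to 6.15 on heart saline arrays. On PBMC arrays it was 9.91 to 25.8 on the DOX side and 27.6 to 31.6 on the control side. In the heart 1 of the 5 leukocyte markers, Coro1a, was called lower and 4 were not called. The neutrophil markers S100a8 and S100a9 together reached 2.08 to 5.77 on heart DOX arrays and 0.22 to 1.48 on heart saline arrays. On PBMC arrays they reached 5.94 to 11.3 on the DOX side and 0.30 to 4.10 on the control side. The part of cell makeup in the results below was not tested. In such bulk samples, fewer cells of a type and less RNA per cell cannot be told apart.

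In the heart, the proteasome genes were lower after DOX. Of the 33 members tested, 26 fell, none rose and 7 were not called, against 48% of all tested genes called lower and 1.36% called higher. The 9 DOX arrays all lay below the 8 saline arrays for 29 members, as they did for 63.3% of all tested genes, and above them for 0 members and 1.81% of all genes. The median log2 fold change was −1.71 over the members and −0.94 over all genes. Genes of like brightness give a closer background: among genes with a mean above 3 on the saline arrays, 91.8% were called lower with a median of −2.34, and 24 of the 26 members that bright were called lower with a median of −1.92. The share of bright members called was thus near that of bright genes in general. Quantile normalization, run over all 34 arrays of both tissues together, moved the median of all genes to −0.25. With it 10 members were called, 8 lower and 2 higher, and the core median turned to 0.08.

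**Figure D1:**
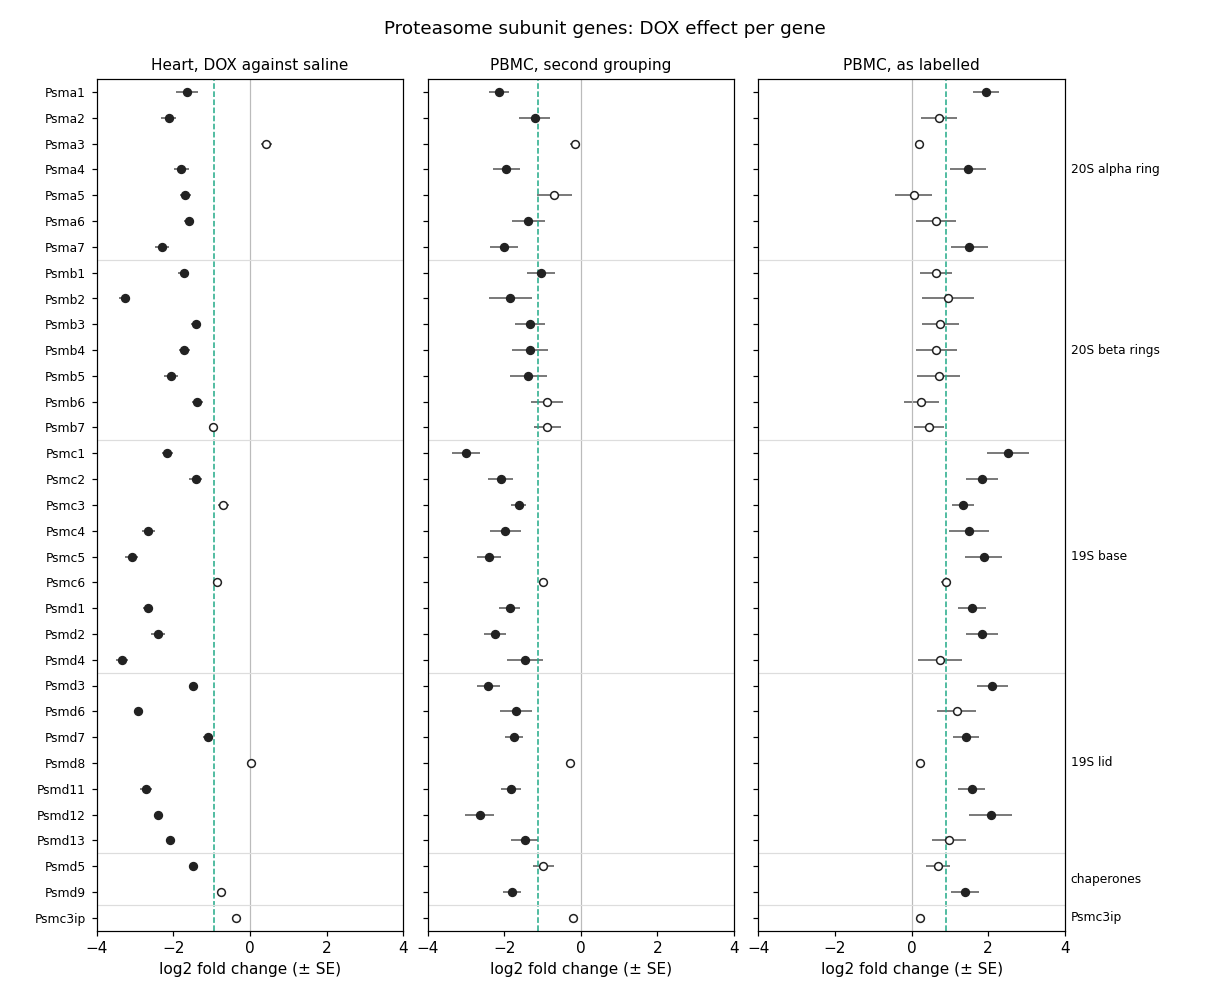
Log2 fold change with its standard error for each of the 33 members tested, by class from top to bottom, in the heart (left), in PBMC by the second grouping (middle) and in PBMC as labelled (right). Filled points passed the test and the fold threshold, open points did not, and the dashed line is the median of all 6781 genes (−0.94, −1.12 and 0.90).

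The catalytic subunits moved unequally in the heart. Psmb5, which carries the chymotrypsin-like activity, had a lowest, median and highest level of 2.11, 3.17 and 3.75 on DOX arrays, against 4.77, 5.04 and 5.27 on saline arrays. It fell by 2.06 ± 0.185 (SE) on the log2 scale (limma, adjusted p = 4.58e-09). Psmb6, which carries the caspase-like activity, had 3.41, 4.03 and 4.64 on DOX arrays, against 5.06, 5.39 and 5.60 on saline arrays. The groups did not overlap for either gene, and Psmb6 fell by 1.37 ± 0.152 (adjusted p = 8.71e-08). Psmb7, which carries the trypsin-like activity, had 3.42, 4.10 and 4.47 on DOX arrays, against 4.88, 5.02 and 5.34 on saline arrays. Its arrays did not overlap either, but its log2 fold change of −0.95 ± 0.125 was under the 2-fold threshold. With quantile normalization Psmb6 was at 0.69 and Psmb7 at 1.23, in the other direction.

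Among the other beta subunits, Psmb2 had the largest fall of the core. It had 0.98, 1.63 and 2.35 on heart DOX arrays, against 4.61, 4.94 and 5.34 on saline arrays. The gap between the groups was wide, and the log2 fold change was −3.28 ± 0.149 (adjusted p = 2.39e-13). Psmb1, Psmb3 and Psmb4 fell by 1.41 to 1.73.

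The alpha ring fell with 1 exception. Of its 7 tested genes, 6 (Psma1, Psma2, Psma4, Psma5, Psma6 and Psma7) had log2 fold changes from −2.29 (Psma7) to −1.59 (Psma6), without overlap between the groups. Psma3 had 0.27, 0.98 and 1.53 on heart DOX arrays, against 0.26, 0.59 and 0.82 on saline arrays. These groups overlapped, and its log2 fold change of 0.43 ± 0.145 (adjusted p = 0.0104) was under the 2-fold threshold. The probe was near background in every group. With quantile normalization Psma3 was called higher, at 1.26.

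The ATPases of the base ranged from the third largest fall of all members to a change under 2-fold. Psmc5 had 0.11, 1.43 and 1.64 on heart DOX arrays, against 4.05, 4.38 and 4.49 on saline arrays. The lowest saline array was well above the highest DOX array, and the log2 fold change was −3.09 ± 0.170 (adjusted p = 3.51e-12). Psmc4 fell by 2.65 ± 0.174, Psmc1 by 2.16 ± 0.142 and Psmc2 by 1.41 ± 0.168. Psmc3 had 1.76, 2.65 and 3.30 on DOX arrays, against 3.14, 3.26 and 3.49 on saline arrays. Its groups overlapped, with a log2 fold change of −0.69 ± 0.15. Psmc6, a dim probe, had a log2 fold change of −0.85 ± 0.0749 without overlap.

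The rest of the base fell strongly. Psmd4, which binds ubiquitin chains, had 0.53, 1.38 and 1.81 on heart DOX arrays, against 4.28, 4.63 and 4.87 on saline arrays. This was the largest fall among the members, −3.34 ± 0.154 (adjusted p = 2.85e-13). The scaffold Psmd1 had 0.72, 1.47 and 1.78 on DOX arrays, against 3.81, 4.11 and 4.17 on saline arrays, and fell by 2.67 ± 0.118. The scaffold Psmd2 had 0.55, 1.60 and 1.92 on DOX arrays, against 3.49, 3.84 and 4.16 on saline arrays, and fell by 2.40 ± 0.190. These 3 genes showed no overlap between the groups.

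In the lid, 6 of the 7 tested genes fell, from −2.92 (Psmd6) to −1.10 (Psmd7). Psmd12 had 1.65, 2.24 and 2.56 on heart DOX arrays, against 4.26, 4.69 and 4.87 on saline arrays, and fell by 2.40 ± 0.111. Psmd11 fell by 2.72 ± 0.154 and Psmd3 by 1.49 ± 0.119. Psmd8, also near background, had 0.14, 0.50 and 0.84 on DOX arrays, against 0.27, 0.40 and 0.56 on saline arrays. Its groups overlapped fully, and its log2 fold change was 0.04 ± 0.0838 (adjusted p = 0.662, 95% interval −0.14 to 0.22). Of the chaperones that help to assemble the base, Psmd5 fell by 1.50 ± 0.0893 and Psmd9 had a log2 fold change of −0.75 ± 0.0782. Psmc3ip was at −0.36 ± 0.104.

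By class medians, the core changed less than the base and the lid. Single genes overlapped between the classes, with Psmb2 of the core at −3.28, Psmc3 of the base at −0.69 and Psmd8 of the lid at 0.04. The median log2 fold change in the heart was −1.70 over 14 core genes, −2.40 over 9 base genes and −2.10 over 7 lid genes. On single arrays, the core median was 2.41 to 3.52 on DOX arrays and 4.69 to 5.20 on saline arrays. The base median was 0.72 to 1.92 on DOX arrays and 4.05 to 4.44 on saline arrays. The lid median was 1.63 to 2.33 on DOX arrays and 4.26 to 4.79 on saline arrays. Each class separated the groups.

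**Figure D2:**
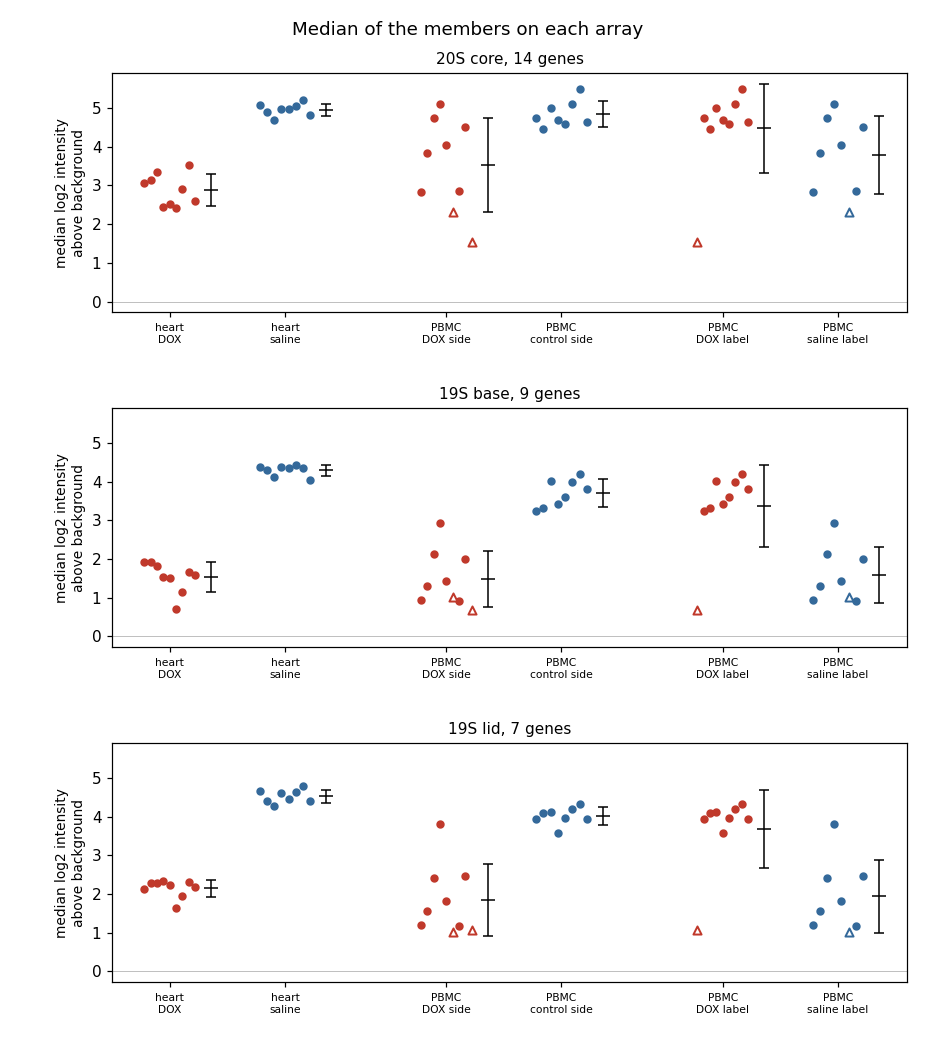
Median log2 intensity above background of the core (top), base (middle) and lid (bottom) genes on each array, for the heart, for PBMC by the second grouping and for PBMC as labelled. Points are arrays, triangles are the arrays labelled PBMC DOX 1 and saline 6, and bars are mean and SD. The heart groups do not overlap in any class.

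The distance between base and core within an array does not depend on a shift common to all genes. It can change where the fall differs with brightness, as it did in the heart. The median there was −0.94 over all genes and −2.34 over genes with a mean above 3 on the saline arrays. The part of brightness in these distances was not tested in either tissue. The base median minus the core median was −1.86 to −0.92 on heart DOX arrays and −0.86 to −0.56 on heart saline arrays, with no overlap. With quantile normalization it was −1.99 to −1.02 on heart DOX arrays and −0.85 to −0.56 on heart saline arrays, again with no overlap. The lid median minus the core median was −1.21 to −0.11 on heart DOX arrays and −0.52 to −0.36 on heart saline arrays, and here the groups overlapped. On heart DOX 4 and DOX 5 it was −0.11 and −0.27, above every saline array, so the lid did not fall more than the core there. These distances compare different probes, so only their shift between groups is read, as a description with no test.

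**Figure D3:**
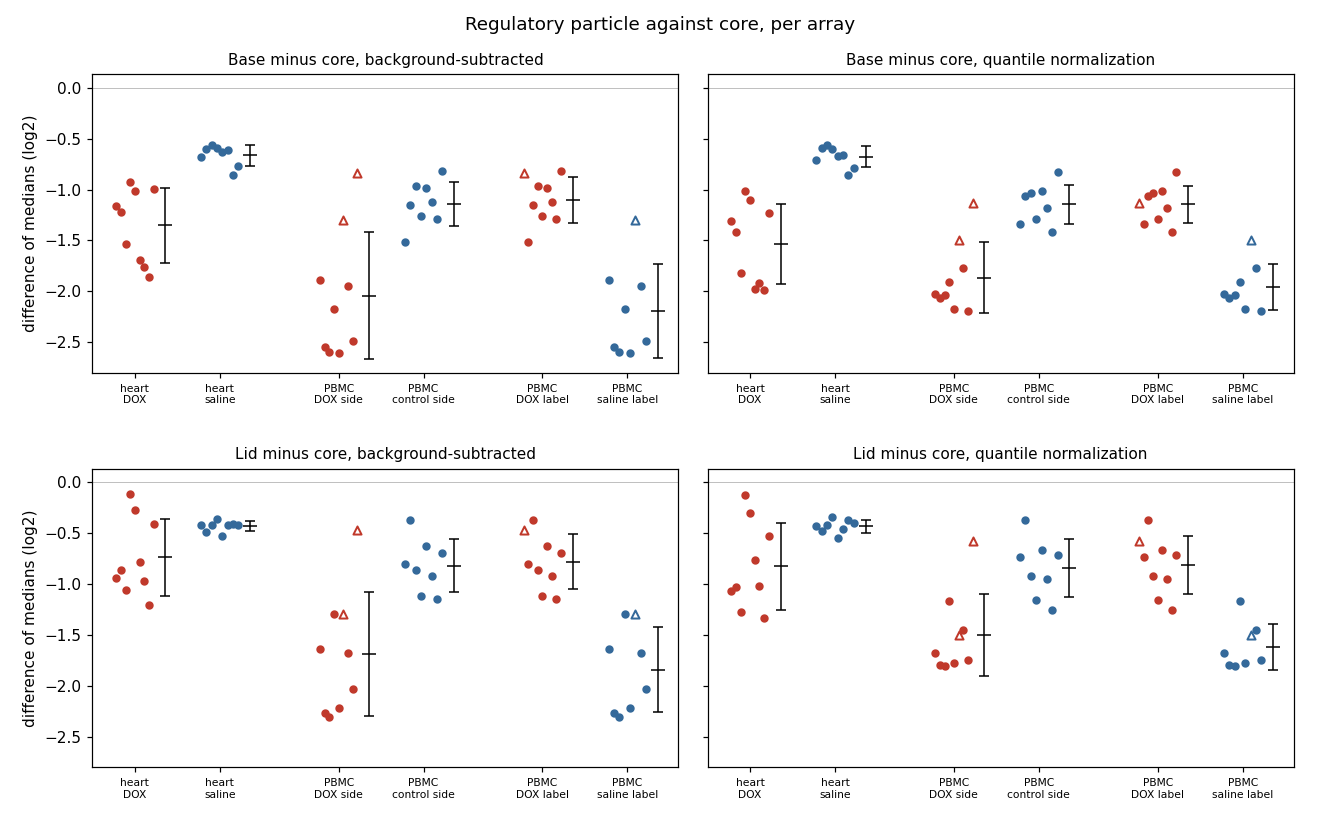
Base minus core (top) and lid minus core (bottom) on each array, as differences of class medians on the log2 scale, with the background-subtracted values (left) and after quantile normalization (right). Triangles are the arrays labelled PBMC DOX 1 and saline 6, and bars are mean and SD. Base minus core is lower on all heart DOX arrays than on all heart saline arrays in both panels.

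In PBMC by the second grouping, the proteasome genes were also lower on the DOX side. Of the 33 members, 25 fell, none rose and 8 were not called, against 54.3% of all tested genes called lower, 0.472% called higher and 54.7% called in either direction. All arrays of the DOX side lay below the control side for 9 members, as they did for 38.4% of all genes, and above it for 0 members and 0.118% of all genes. The median log2 fold change was −1.62 over the members and −1.12 over all genes. Among genes with a mean above 3 on the control side, 90.9% were called lower with a median of −2.20, and 23 of the 26 members that bright were called lower with a median of −1.73. With quantile normalization, which put the median of all genes at −0.09, 1 member was called lower (Psmc1, −1.12), and the core and lid medians turned to 0.28 and 0.11. When the limma p-values were instead ranked among those of genes at background level, 0 members were called after Benjamini-Hochberg adjustment (lowest adjusted p = 0.115), 11 had an unadjusted p under 0.05 with a fold change over 2, and 15 were called once the adjusted p was scaled by the estimated share of unaffected genes.

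The base again fell more than the core. The class medians were −1.32 for the core, −1.97 for the base and −1.75 for the lid, with 10 of 14, 8 of 9 and 6 of 7 genes called. The core calls rested in part on the arrays labelled saline 6 and DOX 1. Without these arrays 4 core genes were called, with a core median of −0.82, while 8 base genes were called with a median of −1.73 and 6 lid genes with a median of −1.65. In the base, Psmd4 lost its call and Psmc6 gained one.

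Psmc1 had the largest fall on the DOX side. It had 1.06, 1.70 and 4.61 on the DOX side, against 4.79, 5.17 and 5.64 on the control side. The groups did not overlap, although the array labelled saline 4 came close to the control side, and the log2 fold change was −3.0 ± 0.368 (adjusted p = 1.12e-06). Psmc5 had 0.19, 1.10 and 2.93 on the DOX side, against 3.23, 3.68 and 4.20 on the control side, and fell by 2.40 ± 0.318. Psmc3, which was under the threshold in the heart, had 0.83, 1.46 and 2.37 on the DOX side, against 2.78, 3.15 and 3.37 on the control side. It fell by 1.62 ± 0.194 (adjusted p = 9.06e-07) without overlap. Psmc2 fell by 2.09 ± 0.329 and Psmc4 by 1.97 ± 0.406, both with overlap. Psmc6 had 0.02, 0.06 and 0.33 on the DOX side, against 0.77, 1.07 and 1.53 on the control side. It was at background on the DOX side, with a log2 fold change of −0.997 ± 0.0879, just under the threshold.

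Among the scaffolds and the ubiquitin receptor, Psmd2 fell by 2.24 ± 0.277 without overlap and Psmd1 by 1.86 ± 0.272 with overlap. Psmd4 had 0.54, 3.61 and 4.44 on the DOX side, against 3.92, 4.46 and 4.91 on the control side. Its groups overlapped, and its fall of 1.46 ± 0.468 (adjusted p = 0.00864) was not called without the arrays labelled saline 6 and DOX 1 (−0.85). In the lid, Psmd12 fell by 2.65 ± 0.384, Psmd3 by 2.42 ± 0.296 and Psmd7 by 1.75 ± 0.240. Psmd3 and Psmd7 showed no overlap, nor did the chaperone Psmd9, which fell by 1.80 ± 0.247.

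The core genes overlapped between the sides, with the exception of Psma1. Psma1 had 0.06, 0.96 and 2.38 on the DOX side, against 2.46, 3.02 and 3.42 on the control side, and fell by 2.14 ± 0.261 (adjusted p = 1.12e-06). Psmb5 had 1.20, 3.68 and 5.11 on the DOX side, against 4.30, 4.67 and 5.36 on the control side. It fell by 1.37 ± 0.486 (adjusted p = 0.0159), but by only 0.80 and without a call when the arrays labelled saline 6 and DOX 1 were left out. Psmb6 and Psmb7 were not called, both at −0.87. Psma3 was at −0.16 ± 0.113 and Psmd8 at −0.29 ± 0.0800.

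**Figure D4:**
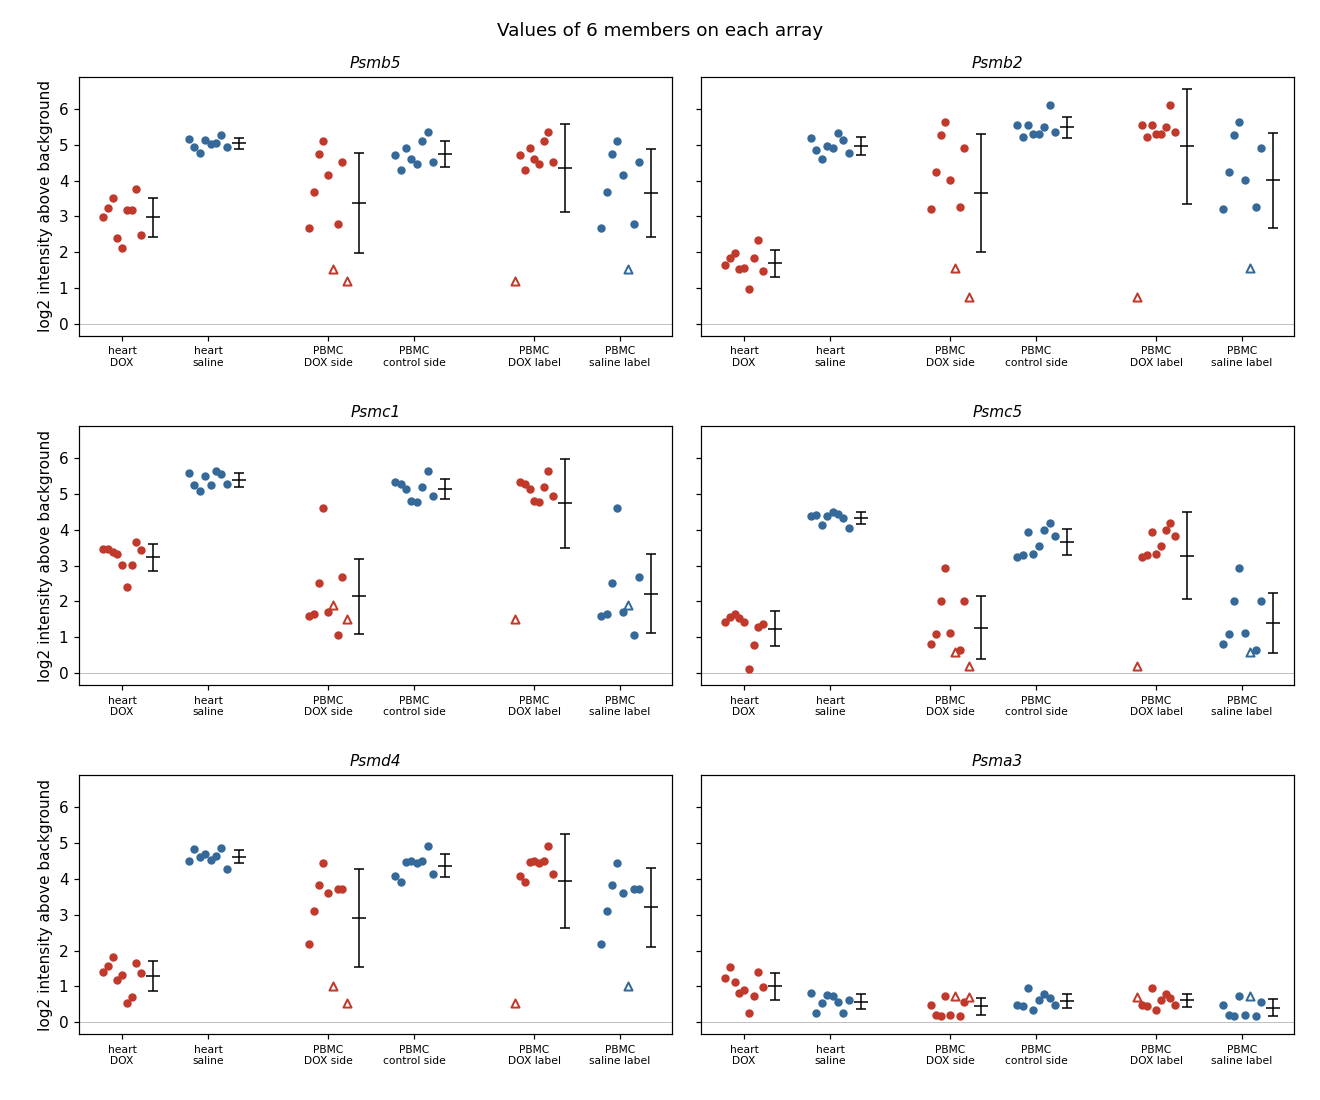
Log2 intensity above background of Psmb5, Psmb2, Psmc1, Psmc5, Psmd4 and Psma3 on each array, in the heart, in PBMC by the second grouping and in PBMC as labelled. Triangles are the arrays labelled PBMC DOX 1 and saline 6, and bars are mean and SD. Psmc1 and Psmc5 do not overlap between the PBMC sides, whereas Psmb5, Psmb2 and Psmd4 do.

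Base minus core was −2.61 to −0.84 on the DOX side and −1.51 to −0.82 on the control side. The overlap came from the arrays labelled saline 6 and DOX 1. Without them the DOX side ran from −2.61 to −1.89, below every array of the control side. With quantile normalization the DOX side ran from −2.19 to −1.14, against −1.42 to −0.83 on the control side. Here only DOX 1 (−1.14) overlapped, and saline 6 was at −1.50. The other 7 arrays ran from −2.19 to −1.77.

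As labelled, the PBMC result had the opposite sign. Of the 33 members, 15 were higher on arrays labelled DOX, none was lower and 18 were not called, against 44.4% of all tested genes called higher, 0.767% called lower and 45.1% called in either direction. No member separated the labelled groups, whereas 3.36% of all genes were higher and 0.0442% lower without overlap. The median log2 fold change was 0.96 over the members and 0.90 over all genes. Among genes with a mean above 3 on arrays labelled DOX, 73.3% were called higher with a median of 1.77, and 11 of the 23 members that bright were called higher with a median of 1.17. With quantile normalization no member was called higher and Psma5 was called lower (−1.36). With p-values ranked among those of background genes, 0 members were called with or without that scaling (lowest adjusted p = 0.191 without it), and 1 had an unadjusted p under 0.05 with a fold change over 2.

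The classes differed in the same order as in the second grouping. Both groupings divide the same 17 arrays, nearly in reverse, so this is not a separate observation. The medians were 0.68 for the core, 1.57 for the base and 1.42 for the lid. In the base, 7 of 9 genes were called higher, in the lid 4 of 7, in the alpha ring 3 of 7 and in the beta rings none of 7, the last with 0.26 (Psmb6) to 0.95 (Psmb2). Psmc1 had 1.52, 5.15 and 5.64 on arrays labelled DOX, against 1.06, 1.80 and 4.61 on arrays labelled saline. Its log2 fold change was 2.52 ± 0.545 (adjusted p = 0.000779), and the overlap came from DOX 1. The other called genes were Psma1, Psma4, Psma7, Psmc2, Psmc3, Psmc4, Psmc5, Psmd1, Psmd2, Psmd3, Psmd7, Psmd9, Psmd11 and Psmd12, at 1.34 (Psmc3) to 2.11 (Psmd3). Psma5 was at 0.05 ± 0.483, with a 95% interval from −0.97 to 1.07. Without the array labelled DOX 1, 25 members were called in place of 15.

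Between the tissues, the direct test of the difference depended on the grouping. As labelled, 31 of 33 members had a higher PBMC effect than heart effect, against 91% of all tested genes called in either direction, 87.8% with a higher and 3.16% with a lower PBMC effect. In the second grouping, 11 members were called, against 60.5% of all genes, 23.1% with a higher and 37.4% with a lower PBMC effect. The PBMC effect was the more negative for Psma3, Psmc3, Psmd3, Psmd7, Psmd8 and Psmd9, and the heart effect for Psmb2, Psmd1, Psmd4, Psmd6 and Psmd11. The largest difference was that of Psmd4, 1.88 ± 0.50 (adjusted p = 0.00169), followed by Psmb2 with 1.44 ± 0.589 (adjusted p = 0.0354). The call of Psmb2 was lost without PBMC saline 2, 3, 4 or 8 or heart DOX 6 (limma adjusted p 0.0519 to 0.0614). That of Psmd7 was lost in 19 of 34 fits that left out 1 array (limma adjusted p 0.0508 to 0.0784), with the values as deposited and without the filter. In the other direction, Psmd9 differed by −1.05 ± 0.263 (adjusted p = 0.000927) and Psmc3 by −0.92 ± 0.251 (adjusted p = 0.00206). Without the arrays labelled saline 6 and DOX 1, 21 members were called in the second grouping.

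In the heart and the second grouping, 23 members were called lower in both tissues, 3 in the heart only, 2 in PBMC only and 5 in neither. Of all tested genes, 33.3% were called lower in both, 14.7% in the heart only and 21% in PBMC only. The 3 of the heart were Psma5, Psmb6 and Psmd5, and the 2 of PBMC were Psmc3 and Psmd9. The 5 called in neither were Psma3, Psmb7, Psmc6, Psmc3ip and Psmd8. As labelled, 13 members were lower in the heart and higher in PBMC, as were 26.7% of all tested genes.

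Other genes of the pathway, from a list of 33 symbols without the immunoproteasome, gave 17 tested genes. In the heart 12 were lower, none higher and 5 not called, where 48% of all tested genes were called lower and 1.36% higher. In the second grouping 14 were lower and none higher, against 54.3% and 0.472% of all tested genes. As labelled 13 were higher and none lower, against 44.4% and 0.767%. Of the activators that open the core, Psme1, Psme2 and Psme4 fell in the heart by 1.72, 1.27 and 2.66. The ubiquitin receptor Adrm1 fell by 2.10, the proteasome-bound deubiquitinase Usp14 fell by 2.89 and the unfoldase Vcp fell by 3.13. Pomp, which guides core assembly, was at −0.30 in the heart and −0.97 in the second grouping, and neither was called. Of the immunoproteasome genes, Psmb9 rose by 1.87 ± 0.143 in the heart and Psmb8 and Psmb10 fell by 2.08 and 1.12.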

How the data were processed

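RNA from left ventricle and PBMC was amplified and hybridized to Illumina RatRef-12 arrays of 22523 probes. Per the sources used here, the authors exported intensities without background subtraction. The deposited table holds them on the log2 scale, each array centred on its own median. The number of arrays limits the precision. Another 34 columns of raw intensities carry names that match no label and were not used, and how the study's repeat arrays enter the deposited columns is not given in the sources used here.

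Each array was then set to 0 at the median of its not expressed probes, the normalization that the study's methods describe. Probes counted as expressed where their average over the 34 deposited arrays was above 0.15, a round stand-in for the study's threshold on uncentred intensities (9416 of 22523 probes). A symbol was annotated for 13793 probes and none for 8730; 13752 were found in the RefSeq table of GRCr8 by Entrez ID, with equal symbols. For each gene the probe with the highest average was kept. DOX and saline were compared with limma 3.58.1 in R 4.3.3 within each tissue, and the tissue difference over all 34 arrays with 4 group means. P-values were adjusted by Benjamini-Hochberg over 6781 genes. The fits were tested on simulated data with independent noise for each gene and array. Such data hold no shifts of whole arrays and no arrays that stand apart, so the simulation does not cover these. Labels do not say which arrays are technical repeats, so p-values measure the spread between arrays.

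The members and gene lists were chosen with earlier results of these data known. Named were the catalytic subunits, the ATPases, Psmd1, Psmd2 and Psmd4, the 3 largest and 3 smallest changes per comparison, and every member called higher; others were named where a count or range needed them. Alternatives were quantile normalization, values as deposited, no filter, the mean of all probes, array weights, p-values set against genes not expressed, leaving out arrays, and a replicate block. Quantile normalization gave all 34 arrays of both tissues a common distribution, so it was not done within each tissue. Further marker lists gave the following limma log2 fold changes for DOX in the heart and in the second grouping: Hbb −1.06 and −0.06, Alas2 0.06 and 0.96 (red cells), Pf4 −2.35 and −0.24, Ppbp −0.16 and 0.97 (platelets), Col1a1 −0.51 and 0.06, Col3a1 −2.48 and 0.08 (fibroblasts). Of the endothelial markers, Cdh5 did not pass the filter and Pecam1 was not analysed here.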

Additional observations from a re-analysis of the deposited data

Results flagged for a closer look

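The named members and the class medians of the arrays were searched for single arrays far from the rest of their group by Dixon's test, 180 times in all, and 44 were found, where chance gives about 5%. Groups of arrays overlap between the groupings, and many genes were tested on the same array, where they can move together. The class medians were tested beside their own members. The tests are thus not independent, and the 5% is only a rough guide. Most concern the array labelled PBMC DOX 1, which was low among the arrays labelled DOX: Psmb5 (1.20), Psmb6 (1.98), Psmb7 (2.17), Psmc1 (1.52), Psmc2 (1.99), Psmc3 (1.12), Psmc4 (1.45), Psmc5 (0.19), Psmd1 (0.35), Psmd2 (0.69), Psmd4 (0.54), Psmb2 (0.74), Psmd3 (2.09), Psmd12 (0.38), Psma5 (0.77), Psma1 (1.06), Psma4 (1.44), Psma7 (2.77), Psmd11 (2.02), Psmd7 (1.17) and Psmd9 (0.33), all as log2 intensity above background. Its medians were 1.53 for the core, 0.69 for the base and 1.06 for the lid, against 4.46 to 5.49, 3.23 to 4.20 and 3.57 to 4.34 on the other 8 arrays labelled DOX. On the DOX side of the second grouping it did not stand out in this way for any of these values. A test for a single outlier can miss an array when another lies near it, so this does not show that DOX 1 was like that side. For some genes the array labelled saline 6 was low beside it. For Psmb2 these arrays had 0.74 (DOX 1) and 1.56 (saline 6), against 3.20 to 5.62 on the other 7.

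The array labelled PBMC saline 4 was high on the DOX side for Psmc1 (4.61), Psmc2 (4.18), Psmc6 (0.33), Psma1 (2.38) and Psmd11 (3.93), and among the arrays labelled saline for the same genes other than Psma1. The array labelled PBMC DOX 8 was high on the control side for Psmb6 (5.88), Psmc4 (4.98), Psmb2 (6.12), Psmc3ip (0.67) and Psma5 (4.51), and among the arrays labelled DOX for Psmc3ip. In the heart, the array DOX 6 was low among the DOX arrays for Psmb7 (3.42), Psmc3ip (−0.14), Psmd12 (1.65), Psma7 (2.20) and Psmd11 (0.42).

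The DOX effects differed between the tissues in the direct limma test, given here as PBMC effect minus heart effect on the log2 scale, each with an adjusted p under 0.05. Only the members named by rule are listed. Psmd6, which is not among them, also differed in the second grouping (1.22). As labelled, the difference was positive for Psmb5 (2.76), Psmb6 (1.63), Psmb7 (1.42), Psmc1 (4.68), Psmc2 (3.26), Psmc3 (2.04), Psmc4 (4.16), Psmc5 (4.97), Psmc6 (1.75), Psmd1 (4.23), Psmd2 (4.23), Psmd4 (4.08), Psmb2 (4.23), Psmc3ip (0.59), Psmd3 (3.60), Psmd12 (4.47), Psma5 (1.74), Psma1 (3.58), Psma4 (3.27), Psma7 (3.79), Psmd11 (4.29), Psmd7 (2.52) and Psmd9 (2.14). In the second grouping it was positive for Psmd1 (0.81), Psmd4 (1.88), Psmb2 (1.44) and Psmd11 (0.90) and negative for Psmc3 (−0.92), Psma3 (−0.58), Psmd8 (−0.32), Psmd3 (−0.93), Psmd7 (−0.65) and Psmd9 (−1.05). Over all 33 members, 31 differed as labelled and 11 in the second grouping, where 91% and 60.5% of all tested genes did.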

How the results depend on the processing

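Quantile normalization left 10 members called in the heart, 1 in PBMC as labelled, 1 in the second grouping and 18 for the tissue difference of the second grouping, and moved the heart medians to 0.083 for the core, −0.88 for the base and −0.74 for the lid. The medians became −0.43, 0.26 and −0.11 in PBMC as labelled and 0.28, −0.42 and 0.11 in the second grouping. The log2 fold change turned sign for 12 of 33 members in the heart, 22 in PBMC as labelled and 18 in the second grouping. Among those called in either setting, it turned in the heart for Psma5 (0.0068), Psma6 (0.46), Psmb1 (0.16), Psmb3 (0.33), Psmb4 (0.26), Psmb6 (0.69), Psmb7 (1.23), Psmc2 (0.43), Psmd3 (0.39) and Psmd7 (0.74); in PBMC as labelled for Psma4 (−0.064), Psma5 (−1.36), Psmc3 (−0.22), Psmc4 (−0.0030), Psmd11 (−0.036), Psmd7 (−0.18) and Psmd9 (−0.14); in the second grouping for Psma2 (0.59), Psma6 (0.17), Psmb1 (0.27), Psmb3 (0.34), Psmb4 (0.023), Psmb5 (0.30), Psmc3 (0.23), Psmd11 (0.11), Psmd13 (0.14), Psmd4 (0.18), Psmd6 (0.13) and Psmd7 (0.14). The other turned members, called in neither setting, were 2 in the heart (Psmc3, Psmc3ip), 15 in PBMC as labelled, Psmb5, Psmb6 and Psmb7 among them, and 6 in the second grouping. The tissue difference turned for 14 members as labelled and 8 in the second grouping. Of the members named by rule and called in either setting these were Psma5 (−1.36), Psmb5 (−0.34), Psmb6 (−1.58), Psmb7 (−2.13), Psmc2 (−0.20), Psmc3 (−1.20), Psmc3ip (−0.025), Psmd7 (−0.92) and Psmd8 (−0.62) as labelled and for Psmd9 (0.40) in the second grouping. The cause was not tested.

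P-values were also set against those of the genes not expressed, as the study did. With Benjamini-Hochberg adjustment, 21 members were then called in the heart, 0 in PBMC as labelled and 0 in the second grouping. By the moderated limma test alone the last 2 counts were 15 and 25. For the false discovery rate of its gene calls the study cites Storey instead. Multiplying the adjusted p by the estimated share of unaffected genes (Storey), chosen after seeing the data, gave 26, 0 and 15. For the tissue difference in the second grouping, array weights gave 24 called members, and leaving out the arrays labelled PBMC saline 6 and DOX 1 gave 21. The values as deposited, the unfiltered genes and the mean of all probes of a gene kept every count of members within 1.5 times. Among the results recomputed under them, the sign turned only for Psma5 in PBMC as labelled, at −0.029 with the values as deposited and not called in either.

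Leaving out 1 array at a time, 26 members stayed the count in the heart, 15 to 25 in PBMC as labelled, 24 to 28 in the second grouping, 31 for the tissue difference as labelled and 9 to 16 in the second grouping. The 25 and the 16 were reached without the array labelled PBMC DOX 1. The core, base and lid medians ran from −1.76 to −1.63, −2.45 to −2.28 and −2.14 to −2.05 in the heart. They ran from 0.41 to 1.05, 1.45 to 1.84 and 1.31 to 1.68 in PBMC as labelled, the lowest core value without saline 6. In the second grouping they ran from −1.53 to −1.05, −2.25 to −1.80 and −1.98 to −1.66.

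The labels share replicate numbers, but deviations of same-numbered arrays correlated at a median of −0.032 between heart DOX and saline and 0.28 (−0.42 to 0.78) between PBMC DOX and saline, and at a median of 0.015 and −0.014 between the tissues in DOX and saline rats. Within a tissue the arrays share only a number. Across tissues the study numbered its samples by rat, but whether the label numbers are those was not given. With the number as a replicate block, 26 members were called in the heart, 16 in PBMC as labelled (Psmd6 added, 1.13, limma adjusted p = 0.0360) and 31 for the tissue difference as labelled. In the second grouping, whose sides share the numbers 2 to 8, the block (chosen after seeing the data) gave 20 called members in place of 25: Psma2, Psma6, Psmb1, Psmb3, Psmb4 and Psmb5 lost their calls and Psmc6 gained one. It was not fitted to the tissue difference of that grouping. The number of arrays limits the precision, and dim probes such as Psma3, Psmd8 and Psmc6 have little signal over background.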
